A study of Homo sapiens with 16 samples.

Results

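RPMI-8226 and MM.1S are human multiple myeloma cell lines, established cultures of malignant plasma cells, the antibody-secreting end stage of the B lineage. The comparison described here set the untreated cells of the 2 lines side by side: RPMI-8226 given only the solvent DMSO (2 arrays) and MM.1S given only DMSO (2 arrays), 4 of the 16 arrays in the series. These were the solvent controls of a 6 day experiment. The other 12 arrays held the same lines exposed to GSK126, an inhibitor of the histone methyltransferase EZH2, to UNC0638, an inhibitor of the histone methyltransferase G9a, or to both (1 μM each). The labels name no engineered change in either line, and both grew in the same serum-supplemented medium. Each line is 1 established culture. The study describes the 2 arrays of a group as biological replications, without saying whether these were separately grown cells. The p-values measure only the spread between replicate arrays, estimated over all 16 arrays of the series.

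Plasma cells silence most of the B cell program, including PAX5, MS4A1 and the machinery that presents antigen on MHC class II, and turn on PRDM1, IRF4 and XBP1, which drive antibody secretion. Myelomas differ in the translocation that places a gene such as MAF, FGFR3 or CCND1 beside an immunoglobulin enhancer, and both lines are known to carry one that involves MAF. They also differ in how the survival pathway NF-kappaB is kept active, since loss of its inhibitors TRAF3, BIRC3, CYLD or TNFAIP3 is a known route. Genes that separate the lines are therefore grouped below by cell identity, surface and secreted proteins, signaling, cell cycle and chromatin.

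Levels are given as log2 of the deposited probe intensity minus the 75th percentile of the same array, so that a level of 0 is the brightness below which 75% of the gene spots of the array lay. A probe was kept when the scanner software marked both arrays of RPMI-8226, or both of MM.1S, as well above background, which left 24562 of 50599 probes and 14365 genes. "On" means well above background on both arrays of a line, "off" means on neither, and "called" means an adjusted p under 0.05 in limma with Benjamini-Hochberg correction over all kept probes. For a probe that was off in a line only a bound exists, and its fold is written as "at least". The lowest level marked well above background was -4.50 and -4.28 on the RPMI-8226 arrays and -4.84 and -4.73 on the MM.1S arrays. Where a gene had several probes, the kept probe that was brightest on average over the 4 untreated arrays stands for it in the gene lists.

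Every array of a line lay on 1 slide, and each slide held 1 line, so a difference between lines cannot be told apart from one between slides, and small differences carry little weight. The 75th percentile intensity was 339 and 299 on the RPMI-8226 arrays and 443 and 431 on the MM.1S arrays, and 47.1% to 50.4% of gene spots were well above background, the higher shares in MM.1S. Levels of the replicate arrays correlated across probes with r = 0.988 for RPMI-8226 and r = 0.996 for MM.1S. The replicate arrays differed with an SD of 0.52 and 0.29, against an SD of 1.95 for the difference between lines. The 7 usable probes for the spike-in RNAs of the labeling kit were higher on the RPMI-8226 arrays by a median of 0.17 after scaling (range 0.15 to 0.27).

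The lines differed at most probes that could be measured. Of the kept probes, 7435 were called higher in RPMI-8226 (30.3%) and 7666 were called higher in MM.1S (31.2%), and 9461 were not called. One probe per gene gave 4595 genes called higher in RPMI-8226 (32%) and 4686 called higher in MM.1S (32.6%), with a median difference over all genes of -0.02. A call alone was thus the usual state of a gene, and the description rests on the size of the difference and on genes that were off in a line.

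The on and off pattern singled out fewer genes. RPMI-8226 alone had 1275 probes on (5.19%), and MM.1S alone had 2251 (9.16%). Of these, 1261 and 1823 were called. The lowest level marked well above background was lower on the MM.1S arrays, and its part in the larger MM.1S counts was not tested. With all probes of a gene required to be off in the other line, 608 genes were on in RPMI-8226 only (4.23%) and 987 in MM.1S only (6.87%). The MM.1S set was larger but dimmer, with a median bound of 2.01-fold against 6.37-fold. Its bound passed 16-fold at 195 probes, against 362 probes of the RPMI-8226 set. Among probes that were on in both lines, 190 were called with more than a 16-fold higher level in RPMI-8226 and 84 in MM.1S.

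**Figure D1:**
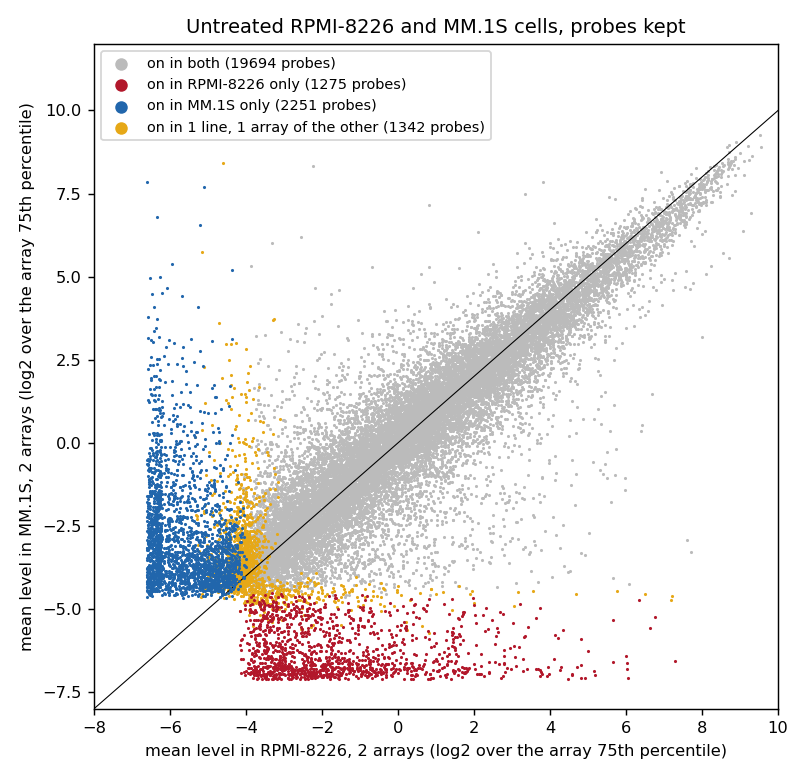
Mean level of each kept probe in untreated RPMI-8226 (horizontal axis) and untreated MM.1S (vertical axis), 2 arrays each, as log2 over the 75th percentile of the array. Gray points were on in both lines, the 1275 red points only in RPMI-8226, the 2251 blue points only in MM.1S, and yellow points were on in 1 line and on 1 array of the other. The lower bound of the fold passed 16-fold at 362 red and 195 blue points.

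The largest bounds of RPMI-8226 belonged to CD8B, CX3CR1, S100A4 and S100A6. CD8B, a chain of the CD8 co-receptor of cytotoxic T cells, had levels of 7.38 and 7.17 on the RPMI-8226 arrays and -7.18 and -5.96 on the MM.1S arrays. All 3 of its probes were on in RPMI-8226 only, and the largest bound was a level at least 4270-fold higher (adjusted p = 2.5e-09; probe at chr2:87068820-87068879, GRCh37). CX3CR1, the receptor for the chemokine fractalkine, read 6.60 and 6.93 against -5.47 and -5.02, at least 2989-fold higher in RPMI-8226. The neighboring genes S100A4 and S100A6 on chromosome 1, which encode calcium-binding proteins linked to cell motility, were at least 2734-fold and 2134-fold higher.

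Other RPMI-8226 genes had bounds between 1402-fold and 484-fold. GAL, a neuropeptide, was at least 1402-fold higher at 1 of 2 probes, the other being off in both lines. HES4, a transcriptional repressor of the Notch pathway, read 5.18 and 5.20 against -7.03 and -6.96, at least 1005-fold higher. G0S2, an inhibitor of fat breakdown, was at least 985-fold higher, and GTSF1, a germ line protein of transposon silencing, at least 882-fold. PRSS3, PHLDA2, CHI3L1, BMP7, SPP1 and CDC42EP1 were at least 1231-fold, 770-fold, 528-fold, 526-fold, 511-fold and 484-fold higher. BMP7 and SPP1 are secreted factors of bone tissue, and all 3 BMP7 probes were on in RPMI-8226 only.

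UCHL1 led the genes of MM.1S. This gene, which encodes a ubiquitin hydrolase abundant in neurons, read -6.71 and -6.49 on the RPMI-8226 arrays and 7.87 and 7.84 on the MM.1S arrays, at least 4869-fold higher in MM.1S (adjusted p = 1.6e-09; probe at chr4:41270340-41270399, GRCh37). CCL3L3, a near-identical copy of the chemokine gene CCL3, was at least 4389-fold higher, and its signal cannot be separated from that of its relatives. LAMP5, a lysosome-associated membrane protein of neurons and dendritic cells, was at least 2345-fold higher, with levels of -6.55 and -6.14 against 6.77 and 6.83. CCL4, a chemokine that attracts lymphocytes and macrophages, was at least 885-fold higher, and both of its probes were on in MM.1S only.

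The next MM.1S genes had varied roles. PERP, a membrane protein of desmosomes, was at least 723-fold higher, and CYP26A1, which degrades retinoic acid, at least 665-fold. The developmental transcription factor PITX1 was at least 536-fold higher, and both of its probes were on in MM.1S only. ITM2A, HBD, UGT2B15, GPAT2, MYOM2, IGFBP7, SASH3 and HBB followed with bounds between 480-fold and 216-fold. HBD and HBB encode globin chains, SASH3 is a signaling adaptor of lymphocytes, and UGT2B15 belongs to a family of near-identical copies. GPAT2, which acts in fat synthesis and in the germ line, was on in MM.1S only at 3 of its 4 probes.

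**Figure D2:**
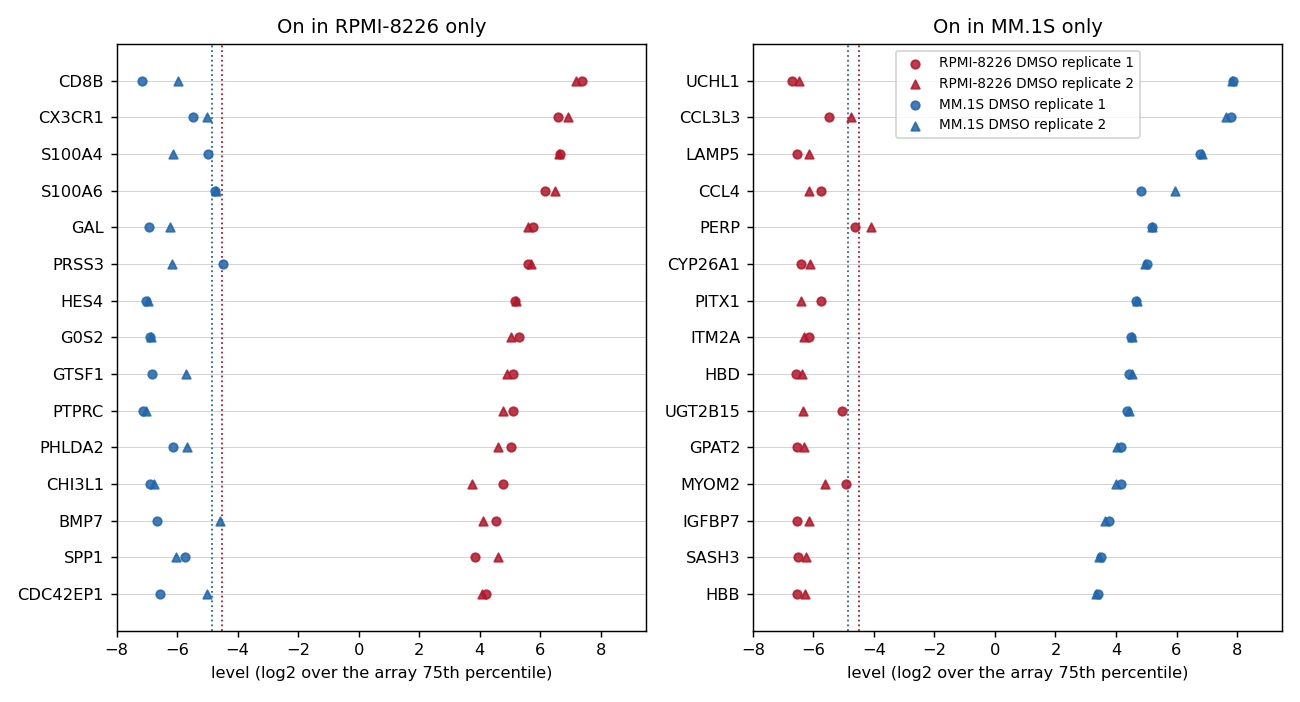
Levels on the 4 untreated arrays of the 15 genes with the largest bounded difference in each direction (left, on in RPMI-8226 only; right, on in MM.1S only), as log2 over the array 75th percentile. Circles and triangles are replicates 1 and 2, red is RPMI-8226 and blue MM.1S, and dotted lines mark the lowest level called well above background in each line (-4.50 and -4.84). The replicates of a line lie together at one side of the panel in every gene, a pattern fixed by the choice of these genes.

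Genes that were on in both lines also differed by large factors. In RPMI-8226 the leaders were PRSS2 (1456-fold), a trypsinogen with near-identical relatives such as PRSS3, and NPDC1 (1269-fold), which is named for a role in neural proliferation and differentiation. TNFRSF25, a death receptor of lymphocytes, was 333-fold higher, ADGRB1, an adhesion receptor for apoptotic cells, 329-fold, and the glycolytic enzyme gene PFKP 272-fold. TNNT1, ADGRE5, EPCAM and ETFB were 274-fold, 238-fold, 216-fold and 170-fold higher. Several of these genes lay near the lowest detected level in MM.1S, so their folds are imprecise. NPDC1 read -4.34 and -4.14 there, TNNT1 -3.93 and -4.14, and ADGRE5 -4.30 and -4.10. EPCAM was well above background on 2 of the 6 treated MM.1S arrays. The tetraspanin gene CD81 was 314-fold higher at 1 probe, but its 3 probes disagreed, with differences from -0.24 to 8.29 and 1 of them on in MM.1S only.

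In MM.1S the chemokine gene CCL3 led this group, with levels of -2.64 and -1.84 in RPMI-8226 and 8.34 and 8.31 in MM.1S (1510-fold). SULF2, a sulfatase that edits heparan sulfate, was 642-fold higher, and the surface receptor gene SLAMF7 434-fold. SULF2 read -2.51 and -4.14 in RPMI-8226, the second near the lowest detected level of -4.28, so its fold is imprecise. TNFAIP3, an inhibitor of NF-kappaB, was 85.1-fold higher, the metalloprotease gene ADAM8 81.5-fold, and IL2RG, the shared chain of several interleukin receptors, 75.4-fold. SEPTIN10, GPAT2, SEMA4A and QPCT were between 124-fold and 70.7-fold higher. For all of these genes the 2 arrays of a line lay on the same side of both arrays of the other. This follows from choosing the largest called differences and is no separate result.

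Both lines carried the plasma cell program, which MM.1S showed at higher levels. Of 24 tested plasma cell genes, 16 were called higher in MM.1S and 2 in RPMI-8226 (1 without RPMI-8226 replicate 2), with a median difference of -0.99 against -0.02 over all genes. The summed level of the list ran from 829 to 885 on the RPMI-8226 arrays and from 1258 to 1309 on the MM.1S arrays, in units of the array 75th percentile. The label of plasma cell origin held in both: PRDM1, XBP1, IRF4, SDC1, TNFRSF17 and CD38 were on in both lines, and CD27, which normal plasma cells carry, was off in both.

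The largest plasma cell differences were in surface receptors and transcription factors. SLAMF7, the target of the antibody elotuzumab, read -3.10 and -2.02 in RPMI-8226 and 6.19 and 6.21 in MM.1S (adjusted p = 4.3e-09). GPRC5D, a receptor used as an immunotherapy target, differed by -5.96, and MEF2C, a transcription factor of B lineage cells, by -4.50. KLF2, a transcription factor of lymphocyte homing and quiescence, read -0.98 and 0.26 against 4.07 and 3.87. PRDM1, the regulator that ends the B cell program, was 6.27-fold higher in MM.1S, and TNFRSF17, which encodes BCMA, 6.00-fold.

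Smaller differences ran the same way for other regulators. IRF4, on which myeloma cells depend, was 2.77-fold higher in MM.1S (2.89 and 2.52 against 4.21 and 4.14; adjusted p = 1.4e-05), SDC1, which encodes CD138, 2.14-fold, and XBP1 1.84-fold. CD38 went the other way, 4.25-fold higher in RPMI-8226, with levels of 3.01 and 4.04 against 1.51 and 1.38 (adjusted p = 0.0078). Without RPMI-8226 replicate 2 the CD38 difference was 1.57 and was no longer called.

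Genes of earlier B cells split between the lines. Of 29 tested, 10 were called higher in RPMI-8226 (34.5%) and 14 in MM.1S (48.3%), against 32% and 32.6% of all genes (B cell median -0.45). MS4A1, PAX5, CD22, CD24, EBF1 and CCR7 were off in both lines. BLK, a Src-family kinase of B cells, read 2.50 and 2.74 in RPMI-8226 and was off in MM.1S, at least 170-fold higher. PTPRC, which encodes CD45, was at least 839-fold higher at its most extreme probe, but its 5 probes disagreed in size, with a difference of 1.43 at the least, and 2 of them were on in both lines. In MM.1S the leaders were CD52, the target of alemtuzumab, with a difference of -8.31 and 1 RPMI-8226 array well above background, FCRLA (-4.71) and the complement receptor gene CR2 (-4.69).

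Antigen presentation differed mainly in its class II arm. Of 20 tested MHC class II genes, 13 were called higher in MM.1S and 2 in RPMI-8226, with a median of -2.00. Only 1 was called higher in RPMI-8226 without MM.1S replicate 1 or without MM.1S replicate 2, and 8 were called higher in MM.1S when all 4 arrays had to be well above background. CIITA, the master regulator of the class II genes, read -3.14 and -2.32 in RPMI-8226 and 0.60 and 0.40 in MM.1S, 9.39-fold higher (adjusted p = 7.5e-05). HLA-DRA read -5.07 and -1.50 against 3.82 and 3.56, HLA-DPA1 -4.34 and -2.18 against 3.84 and 3.64, and HLA-DPB1 -6.45 and -3.71 against 1.29 and 1.11. At these probes only 1 RPMI-8226 array was well above background, and the replicates of RPMI-8226 stood apart at all 3 genes. IFI30, a reductase that unfolds antigens, was 5.03-fold higher in RPMI-8226.

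MHC class I genes showed no such split, with 6 of 19 called higher in RPMI-8226 (31.6%) and 3 in MM.1S (15.8%), against 32% and 32.6% of all genes. The class I median was 0.08, and it turned negative with quantile normalization (-0.20, 4 and 6 called), with spike-in scaling (-0.11, 2 and 5 called) and without RPMI-8226 replicate 2 (-0.08, 2 and 3 called). Without MM.1S replicate 1, 3 genes were called higher in RPMI-8226, and without MM.1S replicate 2, 2 genes. The transactivator gene NLRC5 was 2.47-fold higher in RPMI-8226, and the peptide-loading gene TAPBP 1.68-fold higher in MM.1S.

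**Figure D3:**
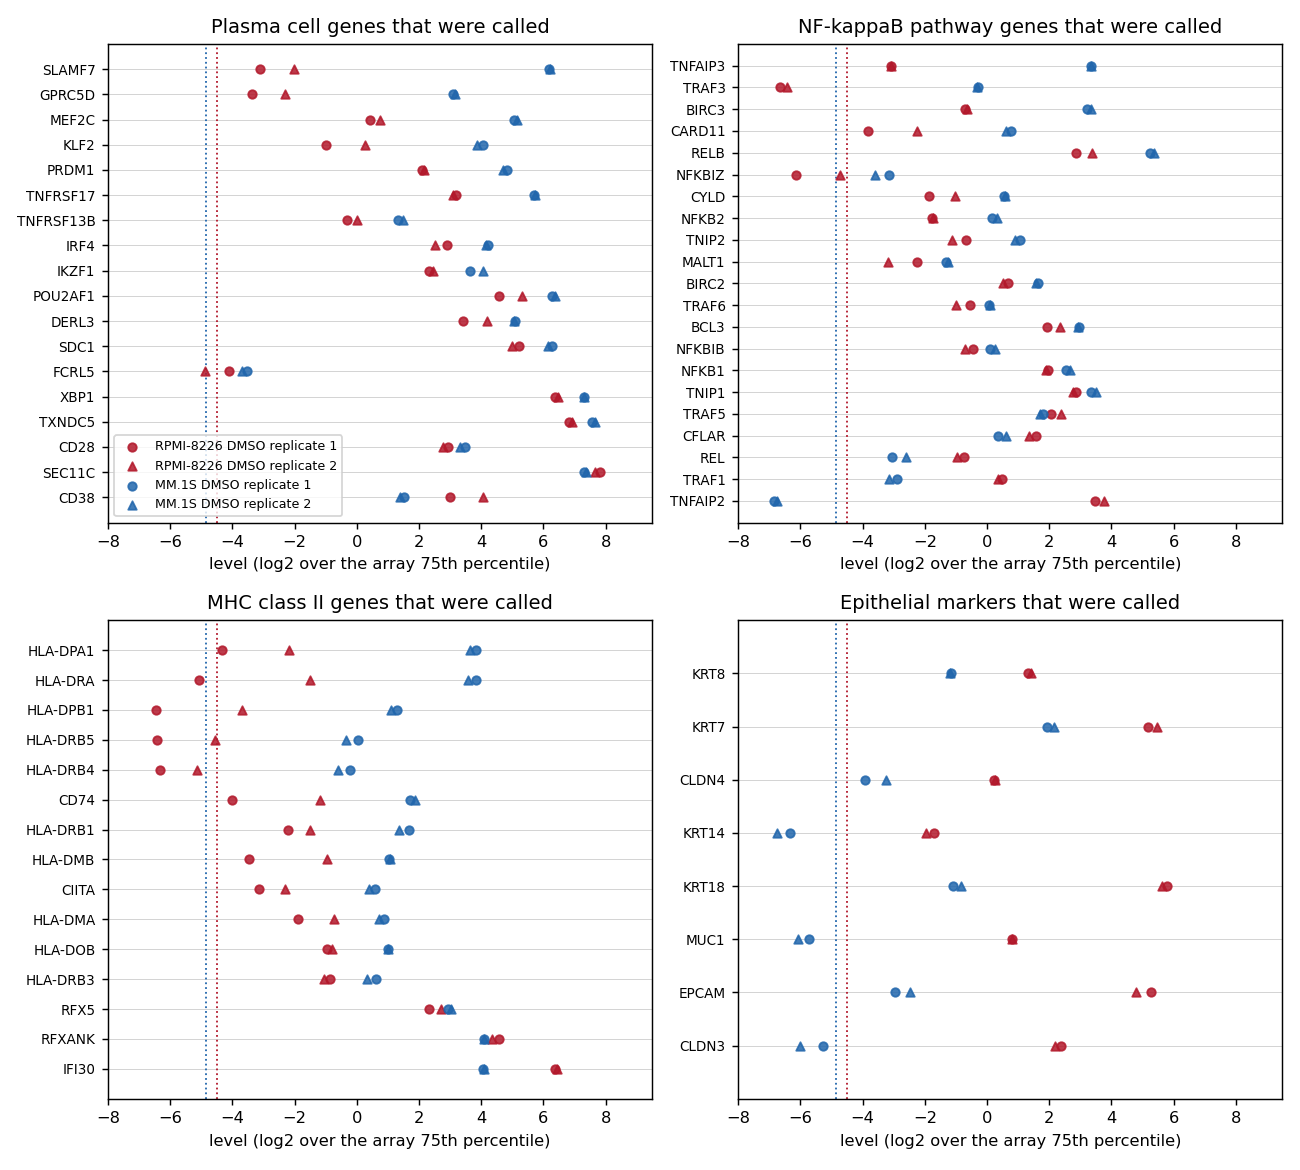
Levels on the 4 untreated arrays of the called genes of 4 lists (plasma cell, NF-kappaB pathway, MHC class II, epithelial markers), as log2 over the array 75th percentile, ordered within a panel by the difference between lines. Symbols and dotted lines are as in the plot of the on and off genes. MM.1S (blue) lies to the right for most plasma cell and class II genes, and RPMI-8226 (red) for all 8 epithelial markers.

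Adhesion genes used by myeloma cells in the marrow leaned slightly to MM.1S, with 13 of 47 called higher in RPMI-8226 and 20 in MM.1S. These shares were 27.7% and 42.6%, against 32% and 32.6% of all genes. FN1, which encodes the matrix protein fibronectin, was at least 125-fold higher in RPMI-8226, with levels of 1.35 and 3.02, and ICAM1, a ligand of leukocyte integrins, was 28.4-fold higher. In MM.1S the hyaluronan receptor gene CD44 had a difference of -10.90, with levels of -3.94 and -6.37 in RPMI-8226 and 5.76 and 5.72 in MM.1S. At this CD44 probe 1 RPMI-8226 array was well above background. The integrin genes ITGA8 and ITGA6 were on in MM.1S only, at least 67.3-fold and 15.9-fold higher, while ITGB7, a homing integrin that MAF is known to induce, did not pass (difference -0.24, adjusted p = 0.12) and was called higher in MM.1S under quantile normalization (-0.57), spike-in scaling (-0.43), normexp correction (-0.27) and without RPMI-8226 replicate 2 (-0.41).

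Secreted factors were divided between the lines. Of 33 tested chemokine and cytokine genes 14 were called higher in RPMI-8226 (42.4%) and 15 in MM.1S (45.5%), against 32% and 32.6% of all genes. The median of the list was -0.02, and it was 0.30 with normexp correction and 0.19 without RPMI-8226 replicate 1. When all 4 arrays had to be well above background the median was -0.79, with 5 called higher in RPMI-8226 and 10 in MM.1S. By all probes, 8 of them were on in RPMI-8226 only and 5 in MM.1S only. Among the former were LTB (at least 65.9-fold), a TNF-family ligand, and IL10 (at least 22.1-fold), an inhibitory cytokine. CXCL12, which retains cells in marrow, was at least 45.6-fold higher in RPMI-8226 at the probe used, but another of its probes was on in both lines. IL23A was 13.6-fold higher in MM.1S besides CCL3 and CCL4, and IL6 and TNF were off in both lines.

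Of 41 tested receptor genes, 14 were called higher in RPMI-8226 and 15 in MM.1S. These shares, 34.1% and 36.6%, lay near the 32% and 32.6% of all genes. TNFRSF18, a costimulatory receptor of the TNF family, was at least 227-fold higher in RPMI-8226, TNFRSF8, which encodes CD30, 102-fold, and TGFBR3, a TGF-beta co-receptor, at least 13.7-fold. In MM.1S, IL2RG was joined by MET, the receptor of hepatocyte growth factor (at least 16.3-fold), and BMPR1A, a BMP receptor (at least 14.3-fold). Fc receptor genes were called higher in MM.1S at 6 of 10 and in RPMI-8226 at 2 (median -0.81). Without MM.1S replicate 2, 3 genes were called higher in MM.1S, without MM.1S replicate 1 the RPMI-8226 count was 1, and with normexp correction 2 were called each way (median 0.07).

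NF-kappaB genes leaned to MM.1S, among them 4 known inhibitors. Of 30 tested, 16 were called higher in MM.1S and 5 in RPMI-8226 (median -0.73). TRAF3, an adaptor that restrains the noncanonical pathway, was off in RPMI-8226 (-6.65 and -6.43) and on in MM.1S (-0.31 and -0.33), at least 16.9-fold higher (adjusted p = 2.4e-11; probe at chr14:103372362-103372421, GRCh37). TNFAIP3 read -3.08 and -3.07 against 3.34 and 3.33, and BIRC3, a ubiquitin ligase of the same complex as TRAF3, was 15.6-fold higher in MM.1S. CYLD, a deubiquitinase that restrains the pathway, was 4.03-fold higher there. In RPMI-8226 the leaders were TNFAIP2, a TNF-induced gene (3.48 and 3.77 against -6.86 and -6.77, at least 341-fold), TRAF1 (10.9-fold) and the subunit gene REL (3.94-fold).

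Of 17 genes of the MAF, cyclin D and translocation list, which mark myeloma subtypes, 6 were called in each direction (median -0.23). That share, 35.3% each way, lay near the 32% and 32.6% of all genes. The largest differences of the list were those of CX3CR1 and SPP1 in RPMI-8226, given above. MAF was high in both lines, at 5.82 and 6.25 in RPMI-8226 and 4.73 and 5.11 in MM.1S, 2.16-fold higher in RPMI-8226 (adjusted p = 0.00074). CCND2, the cyclin D gene that MAF induces, was 1.77-fold higher in MM.1S, CCND1 2.25-fold higher in RPMI-8226, and CCND3 was not called (-0.47, adjusted p = 0.07). CCND3 was called higher in MM.1S with the percentile taken over probes detected on all 4 arrays (-0.53), spike-in scaling (-0.66), an intensity trend (-0.47) and without RPMI-8226 replicate 1 (-0.76). MYC was 2.28-fold higher in RPMI-8226, with levels of 6.90 and 6.87 against 5.80 and 5.59, and MYEOV, a gene near CCND1, 23.1-fold higher in MM.1S.

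Genes of cell survival showed a few large contrasts. Of 15 BCL2 family genes 4 were called higher in RPMI-8226 (26.7%) and 7 in MM.1S (46.7%), against 32% and 32.6% of all genes. BCL2L2, a survival member, was 17.0-fold higher in RPMI-8226, and the BH3-only death genes HRK and BIK 14.0-fold and 7.77-fold. MCL1, BCL2L1 and BID were higher in MM.1S by 1.83-fold, 1.82-fold and 1.66-fold. BCL2 was 1.54-fold higher in MM.1S (adjusted p = 0.008), but was no longer called with only the 4 arrays in the fit (difference -0.62), without RPMI-8226 replicate 1 (-0.47) or without MM.1S replicate 2 (-0.42).

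Cell cycle inhibitors and genes of the RB pathway were called higher in RPMI-8226 at 7 of 17 (41.2%) and in MM.1S at 6 (35.3%). The largest differences were in RPMI-8226. CDKN2A, which encodes p16 and ARF, read 6.55 and 6.30 against 0.69 and 0.39 in MM.1S, 58.9-fold higher, and the imprinted inhibitor gene CDKN1C was 13.5-fold higher. Conversely CCNE1 and CDKN1B were 3.99-fold and 3.51-fold higher in MM.1S. Proliferation genes showed no common direction, with 8 of 28 called higher in RPMI-8226 and 9 in MM.1S (28.6% and 32.1%). Among all genes the shares were 32% and 32.6%. The proliferation median of 0.02 was -0.14 with quantile normalization and -0.17 with spike-in scaling. The count higher in RPMI-8226 was 4 without RPMI-8226 replicate 1, 5 without MM.1S replicate 1 and 4 without MM.1S replicate 2. MKI67 and UBE2C, both markers of dividing cells, were 4.33-fold and 4.85-fold higher in MM.1S, and the replication gene MCM2 1.77-fold higher in RPMI-8226.

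Of 16 glucocorticoid receptor and responsive genes 7 were called higher in RPMI-8226 (43.75%) and 5 in MM.1S (31.25%), against 32% and 32.6% of all genes. The median of the list was -0.33, and it was 0.05 without RPMI-8226 replicate 1. Without RPMI-8226 replicate 2 the first count was 4. MM.1S is known as a glucocorticoid-sensitive line, and NR3C1, the glucocorticoid receptor gene, was 1.95-fold higher there (2.61 and 3.09 against 3.73 and 3.90; adjusted p = 0.0014). HSD11B2, an enzyme that inactivates cortisol, was 40.6-fold higher in RPMI-8226, and the related receptor gene NR3C2 at least 9.32-fold higher in MM.1S. Of 13 cereblon ligase genes 4 were called in each direction, and 2 in MM.1S without MM.1S replicate 1 or without MM.1S replicate 2. With all arrays the cereblon share was 30.8% each way, near the 32% and 32.6% of all genes. CRBN, which lenalidomide and related drugs bind, did not pass (difference -0.10, SE 0.17, adjusted p = 0.61), nor did its degraded partner IKZF3 (-0.32, adjusted p = 0.29). IKZF1, the other partner, was 2.75-fold higher in MM.1S.

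The genes of chromatin methylation, which include the targets of the drugs used in the series, were divided as 11 higher in RPMI-8226 and 12 in MM.1S of 39. These shares, 28.2% and 30.8%, lay near the 32% and 32.6% of all genes. Without RPMI-8226 replicate 1 the RPMI-8226 count was 7, and with spike-in scaling the counts were 7 and 15. KDM6A, which removes the histone mark that EZH2 writes, was off in RPMI-8226 (-6.47 and -6.28) and on in MM.1S (-0.28 and 0.05), at least 19.4-fold higher (adjusted p = 1.4e-10; probe at chrX:44971035-44971094, GRCh37). EZH2 was 1.79-fold higher in MM.1S. EHMT2, which encodes G9a, was 1.52-fold higher in RPMI-8226 (1.27 and 0.91 against 0.56 and 0.41; adjusted p = 0.013), but was not called without RPMI-8226 replicate 1 (difference 0.43), without MM.1S replicate 2 (0.53) or with spike-in scaling (0.42). TET1, which oxidizes 5-methylcytosine, was 20.3-fold higher in MM.1S, while DNMT3A and the EZH2 partner AEBP2 were 3.22-fold and 4.31-fold higher in RPMI-8226.

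Interferon-stimulated genes were called in both directions, 24 of 54 higher in RPMI-8226 (44.4%) and 20 higher in MM.1S (37.0%), against 32% and 32.6% of all genes. The median of the list was 0.17, and it fell to -0.01 with spike-in scaling and -0.05 without RPMI-8226 replicate 2. The antiviral membrane genes IFITM1, IFITM3 and IFITM2, which share sequence, were 61.3-fold, 33.9-fold and 31.1-fold higher in RPMI-8226. In MM.1S the leaders were SAMD9L, an antiviral growth suppressor (15.7-fold), GBP3 (8.37-fold) and GBP1 (at least 5.35-fold), both guanylate-binding proteins.

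Genes of secretion and of the unfolded protein response leaned to MM.1S, with 20 of 40 called higher there and 7 in RPMI-8226 (median -0.37), or 23 and 4 with spike-in scaling. PPP1R15A, which ends the stress-induced block of translation, differed by -3.90 with 1 RPMI-8226 array well above background, and SEL1L of the protein degradation machinery was 7.94-fold higher in MM.1S. Of the immunoglobulin locus genes on the array 2 could be tested, and IGLL1, which shares sequence with the light chain genes, was 7.53-fold higher in RPMI-8226. Ribosomal protein genes were called higher in RPMI-8226 at 57 of 77 and in MM.1S at 1, with a median of 0.44. The counts moved with the scaling, to 25 and 6 with quantile normalization (median 0.07) and to 33 and 1 with spike-in scaling (0.25). With only the 4 arrays in the fit they were 36 and 1, at the same median.

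**Figure D4:**
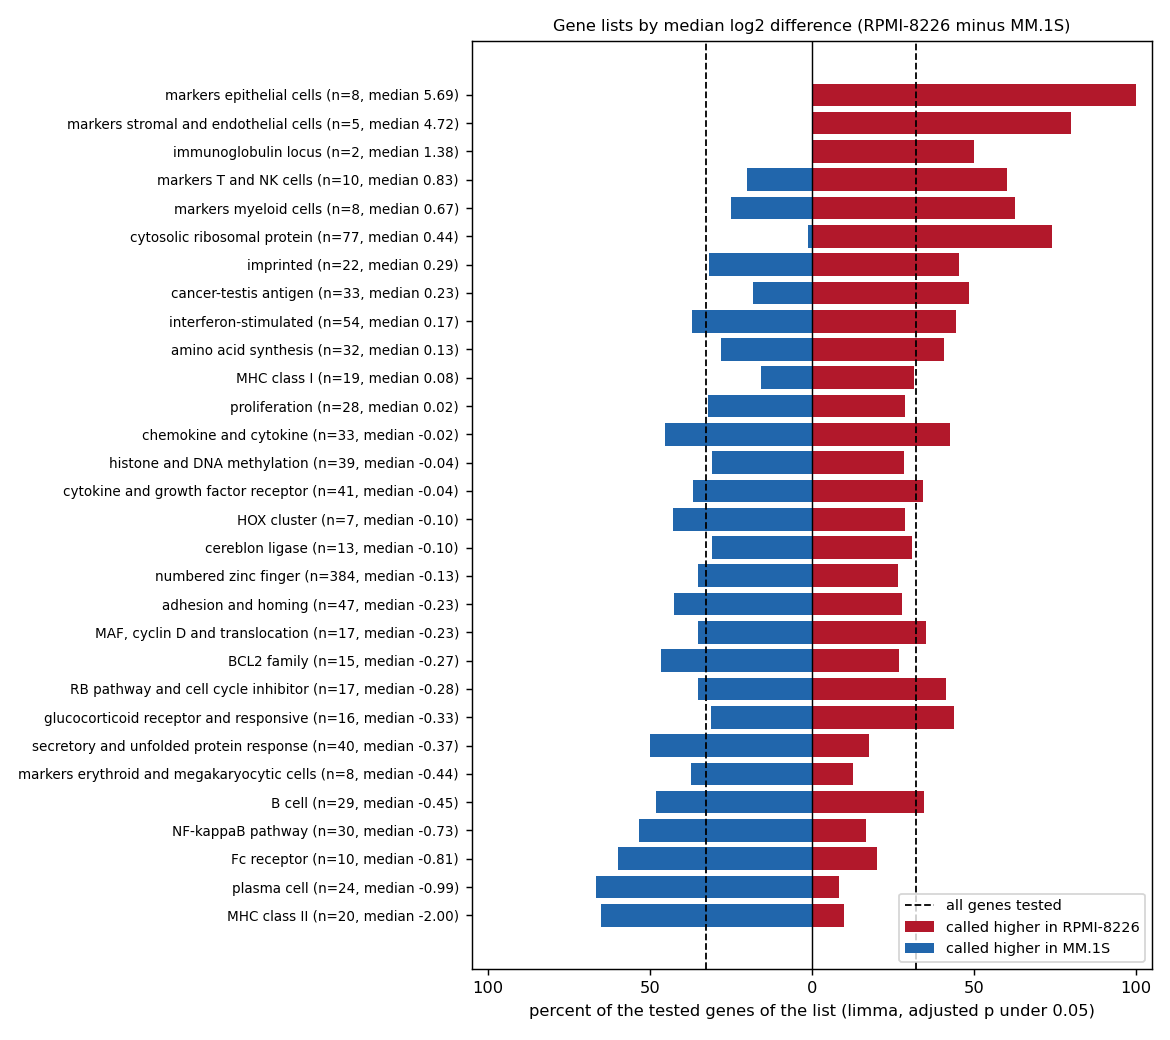
Percent of the tested genes of each list shown that were called higher in RPMI-8226 (red, to the right) or in MM.1S (blue, to the left), ordered by the median log2 difference printed beside each name. Dashed lines mark the 32% and 32.6% of all genes called in each direction. MHC class II and plasma cell genes stand at the MM.1S end, and epithelial and stromal markers at the RPMI-8226 end, some of them with few genes.

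Genes typical of other tissues were uneven between the lines. All 8 tested epithelial markers were called higher in RPMI-8226, and the summed level of the list was 140 and 132 there against 4.99 and 5.80 in MM.1S. EPCAM, an adhesion molecule of epithelia, read 5.26 and 4.80 against -2.97 and -2.49, KRT18, an epithelial keratin, differed by 6.68, and the tight junction gene CLDN3 was on in RPMI-8226 only, at least 134-fold higher. KRT19, KRT5, CDH1 and KRT20, which define many epithelia, were off in both. With only probes that were on in all 4 arrays, 5 markers could be tested and all 5 were called the same way.

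Lymphoid and erythroid markers were split in the same uneven way. Of 10 tested T and NK cell markers, 6 were called higher in RPMI-8226 and 2 in MM.1S, and the list summed to 174 and 151 against 9.88 and 9.80, most of it CD8B. ZAP70, a T cell kinase, and CD7 were on in RPMI-8226 only (at least 15.9-fold and 11.5-fold higher), whereas CD3E, CD5, CD247, LCK and NKG7 were off in both. Of 8 erythroid markers 3 were called higher in MM.1S, HBD and HBB among them, and the list summed to 8.71 and 9.96 against 36.9 and 37.6. HBA2, an alpha-globin with a near-identical copy, was higher in RPMI-8226 with 1 MM.1S array well above background, and ALAS2, AHSP, GATA1 and TAL1 were off in both. Of 8 myeloid markers 5 were called higher in RPMI-8226 and 2 in MM.1S (0 without MM.1S replicate 1, and 1 without any other single array), with sums of 10.0 and 13.0 against 4.97 and 4.51, and of 5 stromal and endothelial markers 4 and 0, with sums of 2.32 and 3.91 against 0.20 and 0.19. MPO, CD163, S100A8, COL1A1 and PDGFRA were off in both lines. In these bulk samples fewer cells of a type and less RNA per cell cannot be told apart, and the part of other cells in the differences was not tested.

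Some of the genes that were on in a single line were neighbors among the tested genes. Along the chromosomes, in the GRCh37 positions of the probes, 26 runs of at least 3 successive tested genes were on in the same line only. Genes without a kept probe were skipped, so members of a run can lie far apart. Some members were not called, among them TMEM171 and PEX2. Of the runs, 16 were on in MM.1S and 10 in RPMI-8226. The longest, of 13 genes from SNURF to SNORD116-29 on chromosome 15, was on in MM.1S only (chr15:25207266-25351751). These genes belong to the imprinted region of Prader-Willi syndrome, where the paternal copy is normally the active one. SNURF read -6.70 and -6.47 against 2.21 and 2.25, at least 98.7-fold higher, and SNRPN was at least 64.5-fold higher. The bounds of the other members ran from 1.12-fold (SNORD116-29) to 25.1-fold (PWARSN), and several lay near the lowest detected level in MM.1S. With normexp correction SNORD107, SNORD108, Q25LE9, SNORD116-4 and SNORD116-29 were no longer called. The SNORD116 copies are near-identical, so their probes are not independent. In the same part of chromosome 15, MKRN3 and ATP10A were on in RPMI-8226 only, at least 24.1-fold and 37.6-fold higher.

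Chromosome X held 3 runs. The longer ones, both on in MM.1S only, held the related TCEAL and BEX genes, which encode small nuclear and signaling proteins and stand close to each other, and a run of 3 genes, HTR2C, PLS3 and CT83 (chrX:114143005-115593025), was on in RPMI-8226 only. A run of 7 genes (chrX:100881013-101859016) comprised ARMCX3, ZMAT1, TCEAL2, TCEAL6, BEX5, TMSB15A and ARMCX5, and a run of 6 (chrX:102471282-102632967) BEX4, TCEAL8, TCEAL5, BEX2, TCEAL9 and BEX3. TCEAL6 was at least 154-fold higher in MM.1S, TMSB15A at least 180-fold, BEX2 at least 129-fold (-6.18 and -6.14 against 2.61 and 2.61), TCEAL5 at least 120-fold and TCEAL8 at least 115-fold. The lowest bounds in these MM.1S runs were those of BEX4 (2.08-fold) and ARMCX5 (2.94-fold). Over the whole X chromosome 58 of 492 tested genes were on in MM.1S only (11.8%), against 6.87% over all genes. The 58 include the genes of the MM.1S runs above. In RPMI-8226 only, 24 were on (4.88%), near the 4.23% over all genes.

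The start regions of SNURF and of 4 X genes are shown because these genes were on or off together, with every CG dinucleotide in capitals. Each window runs from 250 bases before to 50 bases after the annotated gene start and comes from RefSeq (GRCh38.p14), a different build from that of the probes. The windows are SNURF (chr15:24954737-24955036, plus strand), TCEAL6 (chrX:102142432-102142731, minus strand), TCEAL8 (chrX:103255106-103255405, minus strand), TCEAL5 (chrX:103276701-103277000, minus strand) and BEX2 (chrX:103310941-103311240, minus strand), each printed 5′ to 3′ along the gene.
SNURF: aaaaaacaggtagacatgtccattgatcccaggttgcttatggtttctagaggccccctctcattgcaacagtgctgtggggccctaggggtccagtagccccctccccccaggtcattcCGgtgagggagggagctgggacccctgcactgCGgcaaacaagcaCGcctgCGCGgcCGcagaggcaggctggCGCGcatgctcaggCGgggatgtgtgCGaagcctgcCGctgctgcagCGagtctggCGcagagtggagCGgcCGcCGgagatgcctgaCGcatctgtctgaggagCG
TCEAL6: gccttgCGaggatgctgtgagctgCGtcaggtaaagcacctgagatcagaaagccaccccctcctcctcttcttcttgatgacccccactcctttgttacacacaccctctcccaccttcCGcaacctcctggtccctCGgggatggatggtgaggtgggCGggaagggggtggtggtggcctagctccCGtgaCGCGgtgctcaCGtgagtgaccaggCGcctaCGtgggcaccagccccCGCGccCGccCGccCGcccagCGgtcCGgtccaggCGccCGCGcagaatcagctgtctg
TCEAL8: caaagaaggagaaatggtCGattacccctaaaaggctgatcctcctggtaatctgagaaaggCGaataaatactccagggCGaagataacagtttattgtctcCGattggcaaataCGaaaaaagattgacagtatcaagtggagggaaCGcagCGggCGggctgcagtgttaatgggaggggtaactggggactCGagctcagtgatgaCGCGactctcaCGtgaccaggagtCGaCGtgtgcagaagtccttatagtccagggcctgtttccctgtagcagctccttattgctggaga
TCEAL5: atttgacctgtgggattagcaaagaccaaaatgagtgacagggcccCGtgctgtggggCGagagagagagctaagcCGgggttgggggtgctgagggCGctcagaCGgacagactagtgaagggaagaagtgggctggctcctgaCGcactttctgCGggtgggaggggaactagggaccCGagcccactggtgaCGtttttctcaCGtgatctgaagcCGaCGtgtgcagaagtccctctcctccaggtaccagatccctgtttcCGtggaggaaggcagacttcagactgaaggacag
BEX2: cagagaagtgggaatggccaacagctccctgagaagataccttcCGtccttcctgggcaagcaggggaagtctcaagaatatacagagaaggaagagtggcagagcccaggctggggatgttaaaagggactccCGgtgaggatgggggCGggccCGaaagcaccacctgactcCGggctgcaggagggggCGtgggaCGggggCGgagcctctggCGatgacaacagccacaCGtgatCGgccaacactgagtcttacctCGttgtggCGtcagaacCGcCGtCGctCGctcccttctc
CG, which reads the same on both strands, occurs 18 times in the SNURF window, 21 in TCEAL6, 14 in TCEAL8, 13 in TCEAL5 and 17 in BEX2. The median over all 35116 windows is 14, and 96.0% of windows hold at least 1. As many or more occur in 44.5%, 39.5%, 50.3%, 51.7% and 46.0% of windows. The letters give no measure of methylation or of any factor, and nothing is drawn from them.

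**Figure D5:**
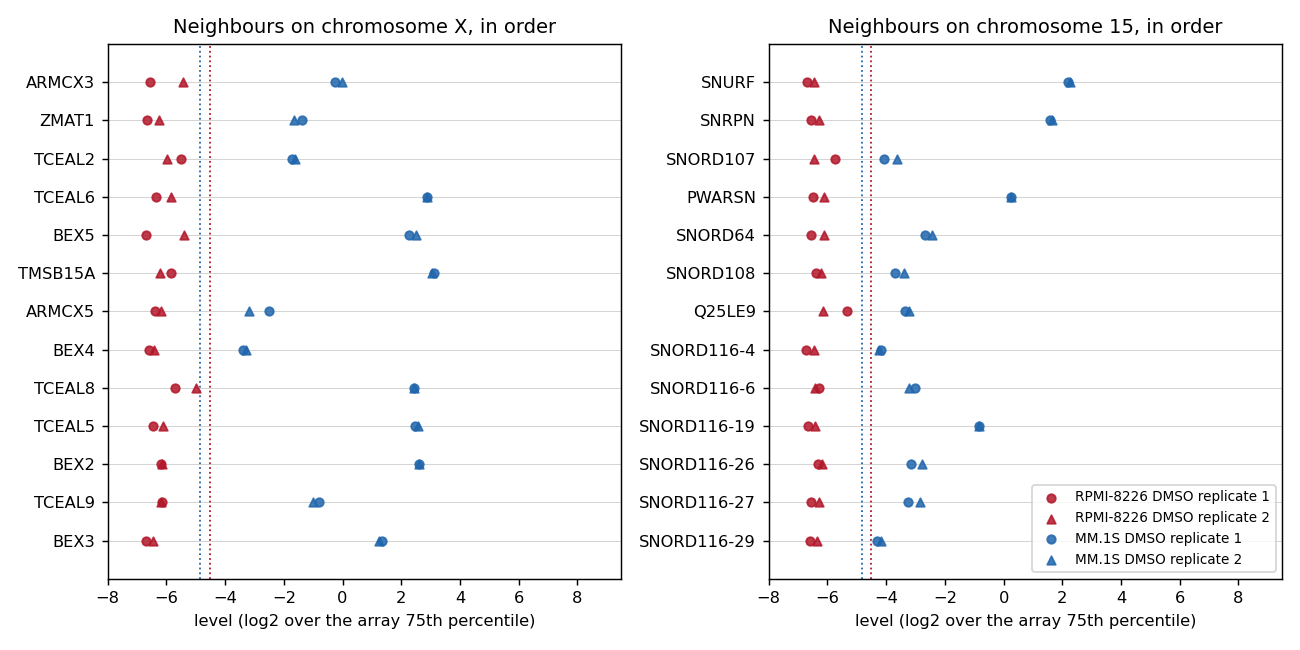
Levels on the 4 untreated arrays of neighbors among the tested genes on chromosome X (left) and chromosome 15 (right), listed in their order along the chromosome, as log2 over the array 75th percentile. Symbols are as in the plot of the on and off genes. RPMI-8226 (red) lies below the dotted lines of the lowest detected levels throughout, and MM.1S (blue) above them.

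Whole chromosomes also differed in level. Over genes that were on in all 4 arrays, the median difference was lowest on chromosomes 4 (-0.51), 7 (-0.43) and 10 (-0.36) and highest on chromosomes 18 (0.54), 16 (0.45) and 14 (0.35). Relative to the median of all genes these 6 kept their sign under every setting tried, for example from -0.56 to -0.44 on chromosome 4 and from 0.46 to 0.53 on chromosome 18. A shift of a whole array cancels in such relative medians, and some settings change no difference, so many settings could not change the sign. Single genes spread widely, with quartiles of -1.11 and -0.04 on chromosome 4 and -0.06 and 1.12 on chromosome 18. Copy number was not measured here.

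Most probes on in a single line stayed on in all treated arrays of that line, and most stayed off in all those of the other. The treated arrays did not enter the choice of probes. Probes that met both conditions were not counted. Of the 1275 RPMI-8226 probes, 997 were well above background on all 6 treated RPMI-8226 arrays, and 875 (68.6%) on none of the 6 treated MM.1S arrays. Of the 2251 MM.1S probes, 1704 were on in all 6 treated MM.1S arrays and 1427 (63.4%) on none of the treated RPMI-8226 arrays. Probes that were off in both untreated lines stayed off on all 6 treated MM.1S arrays in 88.4% and on all 6 treated RPMI-8226 arrays in 93.5%. With both inhibitors together, 193 RPMI-8226 probes (15.1%) were on in both MM.1S arrays, and 290 MM.1S probes (12.9%) on both RPMI-8226 arrays, against 3.07% and 2.21% of the probes off in both lines.

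Single genes fell on either side of that division. CD8B, GAL, HES4, G0S2, GTSF1, PHLDA2, CHI3L1, BMP7 and CDC42EP1 were well above background on 0 of 6 treated MM.1S arrays, and LAMP5, CYP26A1, PITX1, MYOM2 and SASH3 on 0 of 6 treated RPMI-8226 arrays. CX3CR1, S100A6 and SPP1 were on in all 6 treated MM.1S arrays, CX3CR1 at levels between -2.27 and 0.82. PTPRC was on in 5 and S100A4 in 4 of the 6 treated MM.1S arrays, S100A4 at levels of at most -3.31. Likewise CCL3L3 was on in all 6 treated RPMI-8226 arrays, PERP and HBD in 5 of 6, and UCHL1 and UGT2B15 in 4 of 6. The highest treated RPMI-8226 level of UCHL1 was -2.21.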

How the data were processed

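The series holds 16 one-color Agilent arrays of human cell lines in 8 groups of 2. The deposited intensity values were made by the authors with Agilent Feature Extraction 10.7 (submitters' processing notes), which subtracts background from each spot. The study's methods name GeneSpring but give no filter or test for the comparison of the lines. The deposited series table held the same intensity values after rounding to 3 significant digits at 1007574 of 1007616 entries, and was used only as an alternative.

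Control spots were left out, log2 of the processed intensity was taken minus the 75th percentile of each array, and spots of a probe were averaged. The 24562 kept probes were fitted in limma 3.58.1 (R 4.3.3) with 1 mean for each of the 8 groups over all 16 arrays, which share 1 estimate of the spread. The contrast was untreated RPMI-8226 minus untreated MM.1S, with Benjamini-Hochberg adjustment over all kept probes. The fit was tested on simulated data. Tables and figures were made with Python 3.11.15, numpy 2.4.6, pandas 2.3.3 and matplotlib 3.10.9. No spot was saturated, and for arrays the number of replicates limits the precision.

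Gene names came from the array annotation, updated through RefSeq, and probe positions are those of the files (GRCh37). Of all 50599 probes, 28174 matched RefSeq by accession, and 31431 carried a gene symbol. Y-linked genes, unnamed transcripts, a few other genes and 1 of the gene lists are not reported here. For a probe that was off in a line, the bound was the bright line's mean minus the mean over the dim line's arrays of the higher of the lowest detected level and the probe's own level.

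Named genes were the 15 per direction with the largest bound among called on and off genes, the 10 per direction with the largest called difference among probes on in both lines, up to 3 per direction in each of 31 gene lists, and a fixed set of myeloma genes. Genes of chromosomal runs, CYLD and markers named as off were chosen after their values were seen. The comparison, the lists and the rule were chosen with earlier results of these data known. Alternatives covered the scaling (quantile, spike-in, detected probes), normexp background correction with an offset of 50, the filter, the arrays in the fit, the replicate number as a block, an intensity trend, the series table, the mean over a gene's probes, and fold thresholds. A slide block could not be fitted.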

Additional observations from a re-analysis of the deposited data

Results flagged for a closer look

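Outside the gene probes, the arrays carry control spots for the ERCC spike-in transcripts, a set of synthetic RNAs. On the untreated RPMI-8226 arrays 1.16% and 1.37% of these spots were well above background, and on the untreated MM.1S arrays 2.77% and 2.23%. Of the negative control spots, 0% were well above background on both RPMI-8226 arrays and on MM.1S replicate 1, and 0.325% on MM.1S replicate 2. The sources used here do not say that these RNAs were added.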

How the results depend on the processing

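Each result was recomputed under every alternative that could be run. Of 281 named genes 275 were called, and of their 3793 values under other settings 3715 kept both direction and call, 67 lost the call, 8 gained it and 3 turned sign, all 3 under normexp correction (FCRL5 0.058, ITGAM 0.11, HOXB3 0.023). Many named genes were chosen because they were called with the largest differences, and some settings leave the differences unchanged. These counts therefore follow largely from the choice and do not speak for other genes. Without the filter on dim probes 12082 probes were called higher in RPMI-8226 instead of 7435. Calls past 2-fold numbered 4040 in RPMI-8226 and 4445 in MM.1S. They were 2582 and 2326 when all 4 arrays had to be well above background, 2093 and 2108 past 4-fold, and 939 and 635 past 16-fold, and normexp correction gave 2223 in MM.1S. Normexp correction also left 132 of the RPMI-8226 and 54 of the MM.1S probes with a bound past 16-fold, against 362 and 195. The median spike-in difference of 0.17 was 0.11 with scaling over detected probes. RPMI-8226 took 49.2% of the calls, 39.0% with spike-in scaling and 61.6% without the filter, where the median difference over all probes was -0.22 and 0.33, against -0.04. Medians above 0 were found in 12 of the 31 gene lists, and in 8 (spike-in scaling) to 17 (normexp) elsewhere. The cause of these changes was not tested.

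Leaving out 1 array at a time gave 6256 to 7076 probes called higher in RPMI-8226 and 6547 to 7278 in MM.1S, and past 2-fold 3904 to 4290 and 4295 to 4573. Probes on in a single line numbered 1387 to 1590 and 2711 to 2878, of them 356 to 389 and 197 to 234 with a bound past 16-fold, and 887 to 1073 and 1484 to 1914 on none of the treated arrays of the other line. Each array left out drops a condition of the on and off rule. The number of probes on in a single line can then only rise from 1275 and 2251. Likewise those on none of the treated arrays can only rise from 875 and 1427. Leaving out an array gave 11 to 13 lists with a median above 0 and 6 chromosomes beyond 0.3 each time. Replicate numbers did not pair the arrays of the lines (same-numbered deviations correlated with r = 0.0301 across probes). With the replicate number as a block, 7655 and 7885 probes were called, 4057 and 4470 of them past 2-fold, and no call of a named gene changed. Slide and line cannot be told apart, and probes near the background floor give only bounds.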

Other observations

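Further gene families were counted in the same way, beside the 32% and 32.6% of all genes called higher in RPMI-8226 and in MM.1S. Cancer-testis antigen genes, which are normally confined to the germ line, were called higher in RPMI-8226 at 16 of 33 tested and in MM.1S at 6, with a median of 0.23. GAGE7 and MAGEA9 were on in RPMI-8226 only, at least 293-fold and 89.3-fold higher, and MAGEC3 in MM.1S only, at least 4.74-fold higher; these families hold near-identical copies. Of 22 tested imprinted genes 10 were called higher in RPMI-8226 and 7 in MM.1S (median 0.29), and ZDBF2 was on in MM.1S only, at least 46.9-fold higher.

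Genes of amino acid synthesis were called higher in RPMI-8226 at 13 of 32 and in MM.1S at 9, with a median of 0.13 that was -0.06 with spike-in scaling. ASS1, which makes arginine precursors, read 5.56 and 5.45 in RPMI-8226 and -1.56 and -0.56 in MM.1S, 94.7-fold higher in RPMI-8226, and CBS, which acts in cysteine synthesis, was 36.9-fold higher. PHGDH, the first enzyme of serine synthesis, was 4.89-fold higher in MM.1S. Of 7 tested HOX genes 2 were called higher in RPMI-8226 and 3 in MM.1S (median -0.10), with HOXB9 on in RPMI-8226 only (at least 20.5-fold). Numbered zinc finger genes were called higher in RPMI-8226 at 102 of 384 (26.6%) and in MM.1S at 135 (35.2%), near the shares of all genes (median -0.13). These counts were 75 and 155 with spike-in scaling and 116 and 113 with normexp correction. ZNF521, a transcription co-factor of progenitor cells, was on in MM.1S only, at least 65.1-fold higher, and ZNF77 was on in RPMI-8226 only, at least 47.0-fold higher.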
